A study of Mus musculus with 7 samples.

Results

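The 58 genes described here encode chemokines, cytokines, their receptors, and the JAK kinases, STAT transcription factors and SOCS inhibitors that act behind many of these receptors. They were chosen by gene symbol, older symbols included, out of 21900 protein-coding genes in the RefSeq annotation of GRCm38. The choice was made with earlier results of these data known. Of the 58 genes, 29 had at least 1 m6A peak in the muscle table or the C2C12 list, and 29 had none in either, where 27.3% of all protein-coding genes had a peak in at least 1 of them.

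Chemokines guide leukocytes into injured tissue through receptors with 7 membrane-spanning segments, and Ccr2 is the receptor by which monocytes enter injured muscle. Cytokines of the IL-6 and interferon families bind receptors without kinase activity of their own. Associated JAK kinases then phosphorylate STAT proteins, which move to the nucleus. SOCS proteins are induced by STATs and switch the receptors off again. N6-methyladenosine (m6A), deposited on mRNA by METTL3 and its partners, affects the stability and translation of mRNAs.

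In m6A MeRIP-Seq, fragments of polyA RNA are pulled down with an anti-m6A antibody, and a peak is a stretch where the immunoprecipitate (IP) holds more reads than the input does. The muscle experiment compared METTL3 cKO mice (Pax7CreERT2; METTL3 flox/flox) with control (CTL) mice (Pax7CreERT2; METTL3 wt/wt), with 1 IP and 1 input library per genotype, all on the C57BL/6 background, all given tamoxifen on 5 successive days and then cardiotoxin (CTX), with the muscle taken at day 2. The age of these mice is not given in the sources used here. Pax7CreERT2 acts in Pax7+ muscle stem cells, so cells of other origin, leukocytes among them, should keep METTL3 in both genotypes, which was not tested. C2C12, a line of mouse myoblasts, gave 2 IP libraries and 1 input library. The labels call the genotype of these IP libraries a knockout and that of the input normal. The paper names no loss of METTL3 for this experiment, and its C2C12 depletion of METTL3 was by shRNA. Which genotype the IP libraries had is thus not settled here. The labels describe both growth and differentiation of C2C12 cells, and which state these libraries came from is not settled by them.

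For muscle, the authors deposited 1 value of each kind per peak and none per library, and every one of the 5412 listed peaks had passed their own differential test between the genotypes. A gene missing from the muscle table may therefore carry m6A that did not pass that test. No direction between cKO and CTL is given here, since the only columns that hold one are the authors' own comparison, and no test between genotypes can be made with 1 library of each kind. The C2C12 list gives positions and annotation of 5433 peaks without enrichment. Neither table holds read counts, so the depth of the libraries and the expression of the genes are unknown.

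The labels name the source of the muscle libraries as muscle and the cell type as muscle stem cell, without saying that cells were sorted, and this was set against marker genes, for which only the presence of a listed peak could be read. Of 6 stem cell and myoblast markers, 4 had a muscle peak (Pax7, Myod1, Myog and Itga7), whereas Myf5 and Cdh15 had none. Of 7 fibre markers, Ttn and Des were listed, Ttn with 27 peaks and Des with 1. No gene in the muscle table had more than 27 peaks. Of 7 macrophage and monocyte markers, Itgam, Mrc1 and Cd14 had a peak, and Adgre1, Cd68, Lyz2 and Ly6c2 had none. None of the 4 neutrophil or 3 T cell markers was listed, while 1 of 3 endothelial and 2 of 3 fibro-adipogenic markers were. The peaks of Itgam and Mrc1 were weak, with fold enrichments of IP over input of 2.81 and 1.73, against 194 for Cd14. The stem cell and myoblast markers stood at 39.0 (Pax7), 13.5 (Myod1), 6.82 (Myog) and 2.73 (Itga7). Ttn stood at 8.13, Des at 2.12, Pdgfra at 49.7 and Col1a1 at 3.52. The endothelial marker Cdh5 stood at 155 and was not in the C2C12 list. Cd14 and both listed fibro-adipogenic markers, Pdgfra and Col1a1, were also in the C2C12 list, so a peak on a marker does not by itself show that the cell type was present. The part that infiltrating cells have in the peaks below was not tested. In RNA of mixed cells, fewer cells of a type and less RNA per cell cannot be told apart.

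Among the 58 genes, peaks were listed for more of the receptors than of the ligands. In muscle, 23 of the 58 genes (39.7%) had a peak, where 16.9% of all protein-coding genes did. The C2C12 list held 18 of the 58 (31.0%), where it held 17.6% of all protein-coding genes. Of the 22 receptors, 15 (68.2%) were in the muscle table and 11 (50.0%) in the C2C12 list. Of the 23 ligands, 3 (13.0%) were in the muscle table and 3 (13.0%) in the C2C12 list (Wilson 95% interval from 4.54 to 32.1 for each, for counting error only), near the shares of all protein-coding genes, expressed or not. In neither were 18 ligands (78.3%), close to the 72.7% of all protein-coding genes. Of the 13 kinases, STATs and inhibitors, 5 (38.5%) were listed in muscle and 4 (30.8%) in C2C12.

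**Figure D1:**
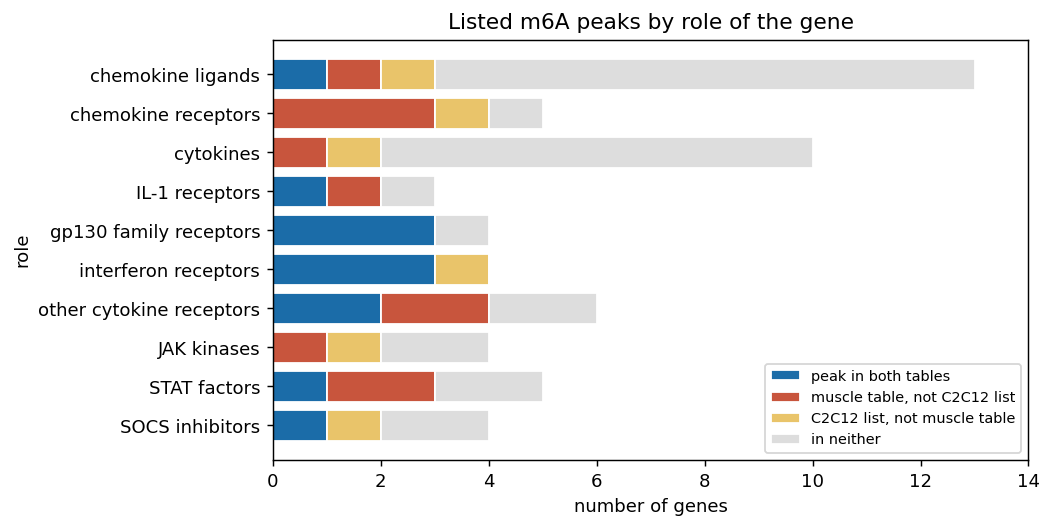
Number of genes (horizontal axis) in each of the 10 roles (vertical axis), divided by colour into those with a peak in both tables, in the muscle table and not the C2C12 list, in the C2C12 list and not the muscle table, and in neither. Among the chemokine ligands 10 of 13 genes (76.9%) are in neither, near the 72.7% of all protein-coding genes, while all 4 interferon receptor genes are in at least 1.

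Gene length went with these shares, so it is given beside them. The 29 listed genes had a median span of 21535 bp on the genome, introns included, and the 29 others one of 6596 bp. Over all protein-coding genes, the share with a muscle peak was 7.80% for genes of up to 5654 bp, 15.5% for those of up to 17146 bp, 19.4% for those of up to 44307 bp and 25% for longer ones, which divides the genes into 4 bins of about equal size. In the same bins, 3 of 15 members (20.0%), 4 of 16 (25%), 10 of 19 (52.6%) and 6 of 8 (75%) had a muscle peak. Of the 13 chemokine ligands, 9 lie in the bin of shortest genes and 4 in the next. In C2C12 the members' shares were 13.3%, 18.8%, 47.4% and 50.0% in these bins, against 11.3%, 18.4%, 19.4% and 21.5% of all genes. Each of these shares rests on 10 members or fewer with a peak, and on 2 to 4 in the bins of shorter genes. The part of length and expression in the counts by role was not tested.

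A peak in both tables was found for 12 genes: Cxcl12, Il1r1, Il6st, Lifr, Osmr, Ifnar1, Ifngr1, Ifngr2, Il4ra, Il17ra, Stat2 and Socs3. These are 52.2% of the members in the muscle table and 66.7% of those in the C2C12 list, and they include 9 receptor chains. Of all protein-coding genes, 7.32% were in both tables, which is 43.2% of those in the muscle table and 41.4% of those in the C2C12 list. The muscle table and not the C2C12 list held 11 members: Cxcl10, Ccr2, Cxcr2, Cx3cr1, Tnf, Il1rap, Csf2rb, Csf3r, Jak2, Stat5b and Stat6. These are 19.0% of the members, where 9.6% of all protein-coding genes were in the muscle table and not the C2C12 list. The C2C12 list and not the muscle table held 6: Cx3cl1, Cxcr4, Csf1, Ifnar2, Jak1 and Socs5. That is 10.3% of the members, the same share as the 10.3% of all protein-coding genes. Whether a gene differs between muscle and C2C12 was not tested, as the muscle table holds differential peaks and the C2C12 list does not.

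The fold enrichment of IP over input, the authors' value for each muscle peak, was higher for most of these genes than for the median gene of the table. Each gene was represented by its highest peak. The median of the 23 members was 35.5 (quartiles 20.6 and 92.6), against 19.3 (quartiles 6.84 and 75.8) for all 3983 genes in the table. A value no lower than 19.3 was listed for 17 of the 23 members (73.9%). At the other end, 4 of the 30 member peaks (13.3%) had a fold enrichment under 2, against 3.46% of all peaks. The range among the members ran from 1.59 for Stat5b to 815 for Cxcl12. The authors give no error for a fold enrichment, so the order of neighbouring genes was not tested.

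**Figure D2:**
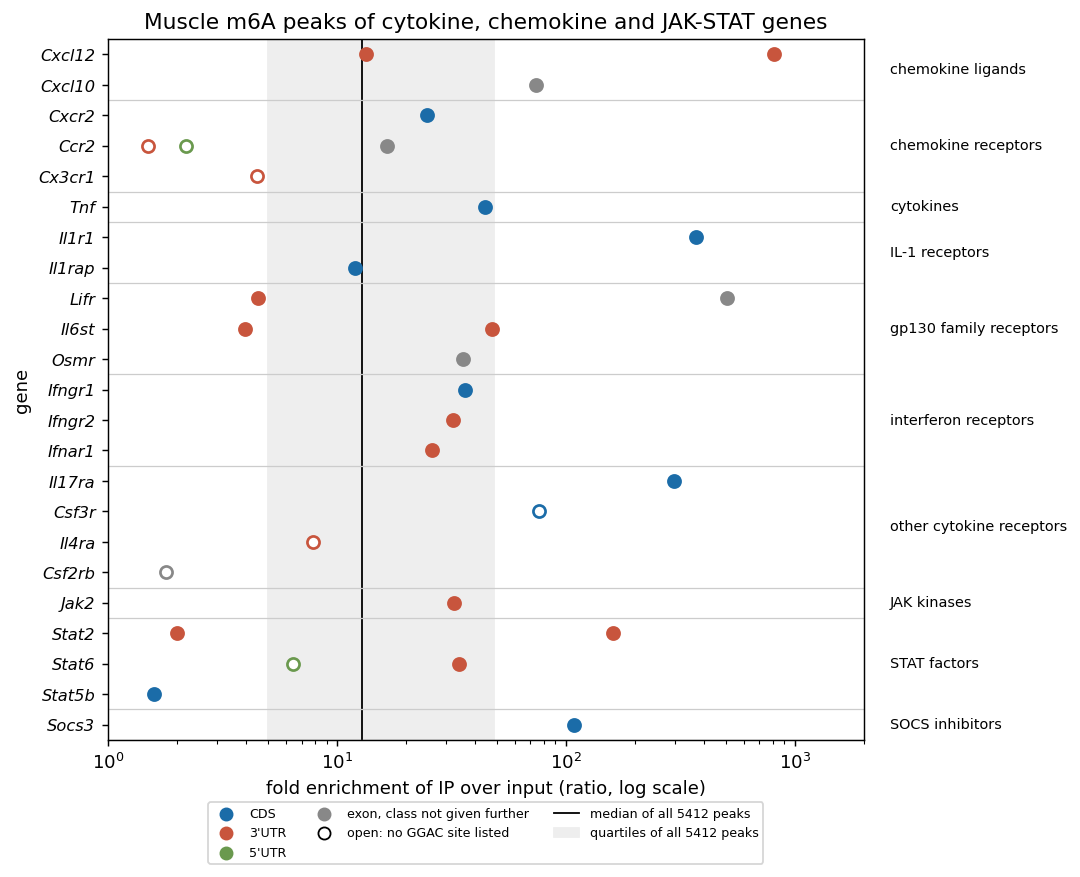
Fold enrichment of IP over input (horizontal axis, log scale) of the 30 muscle peaks of the 23 members (vertical axis, by role), coloured by annotated class, with open points for peaks without a listed GGAC site. The line and the grey band mark the median (12.9) and the quartiles of all 5412 muscle peaks, and the highest points are those of Cxcl12 (815), Lifr (503), Il1r1 (369) and Il17ra (297).

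Cxcl12 had the highest peak of all members. It encodes the stromal chemokine that binds Cxcr4. Its main peak lies in the 3′UTR, on chromosome 6 from 117176276 to 117177923, spans 1648 bp and holds 11 GGAC sites, GGAC being the core of the m6A consensus motif that the authors marked in each muscle peak. With a fold enrichment of 815 it was rank 40 of the 5412 peaks. Another 3′UTR peak, from 117178882 to 117179391, had a fold enrichment of 13.4 and 3 sites. In C2C12, by contrast, Cxcl12 had 1 peak of 254 bp that the authors place in an intron. Cxcl10, an interferon-induced chemokine that attracts T cells, had 1 exon peak of 267 bp at a fold enrichment of 73.9, on chromosome 5 between 92346905 and 92347171, and 1 GGAC site lies in it. The annotation also places Art3 over this stretch, and the authors' table assigns the peak to Cxcl10. The inflammatory cytokine Tnf had 1 peak of 775 bp in 2 exon blocks, annotated to the coding sequence (CDS), with 6 sites and a fold enrichment of 44.5, on chromosome 17 between 35199828 and 35200896.

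In C2C12, the ligand with the longest covered sequence was Csf1, the growth factor of macrophages, with a 3′UTR peak of 1162 bp and an intron peak of 536 bp. Together these cover 1698 bp, which is rank 60 of the 3966 C2C12 genes found in the annotation. Cx3cl1, the membrane-bound chemokine recognised by Cx3cr1, had 1 coding exon peak of 384 bp. Neither table lists Ccl2, Ccl3, Ccl4, Ccl5, Ccl6, Ccl7, Ccl9, Cxcl1, Cxcl2, Cxcl5, Il1a, Il1b, Il1rn, Il18, Il6, Il10, Lif or Osm. The ligands Lif and Osm had no peak, while their receptor chains Lifr and Osmr did. Other pairs went otherwise. Neither gene had a peak for Il6 and Il6ra or for Il10 and Il10ra, and Csf1 was listed without its receptor Csf1r.

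The receptors of the gp130 family were listed in both tables, apart from Il6ra, the chain that binds IL-6 itself. Il6st encodes gp130, the signalling chain that IL-6, LIF and oncostatin M share, and Lifr and Osmr encode its partner chains. Lifr had the second highest fold enrichment of all members, 503 (rank 119 of all peaks), from a peak on chromosome 15, between 7190635 and 7191682, that covers 1048 bp with 5 GGAC sites and that the authors class as exon without a further division. Its 3′UTR peak, from 7197010 to 7197190, stood at 4.50. The main Il6st peak covers 1921 bp of the 3′UTR, on chromosome 13 between 112503877 and 112505797, and had 6 sites and a fold enrichment of 47.6. A weaker 3′UTR peak of Il6st, from 112507986 to 112508196 (3.96), lies beyond the end of the gene in the RefSeq annotation. For Osmr there was 1 exon peak of 481 bp, between 6814416 and 6814896 of chromosome 15, with 2 sites and a fold enrichment of 35.5. In C2C12, Il6st had 2 peaks in the 3′UTR covering 1064 bp, Lifr 1 in the 3′UTR of 470 bp and Osmr 1 in a coding exon of 520 bp.

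All 4 interferon receptor chains had a C2C12 peak, and Ifngr1, Ifngr2 and Ifnar1 also had a muscle peak. Their muscle values lay close together, at 36.4 for Ifngr1, 32.1 for Ifngr2 and 25.9 for Ifnar1. The Ifngr1 peak, in the CDS, covers 810 bp between 19609240 and 19610049 of chromosome 10 and holds 4 GGAC sites. The others are in the 3′UTR on chromosome 16, that of Ifngr2 with 568 bp from 91562931 to 91563498 and that of Ifnar1 with 871 bp from 91506541 to 91507411, and each holds 3 sites. In C2C12, the peak of Ifngr1 (397 bp) and that of Ifnar1 (438 bp) are in coding exons, and the peak of Ifngr2 (201 bp) is in the 3′UTR. Ifnar2, the partner of Ifnar1 in the receptor for type I interferon, had 2 coding exon peaks in C2C12 covering 682 bp and none in the muscle table.

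Of the IL-1 receptors, Il1r1, the signalling receptor, had a CDS peak of 957 bp in 2 blocks on chromosome 1 from 40312466 to 40313882, with 4 sites and a fold enrichment of 369. In C2C12 it had 1 peak of 552 bp in the 3′UTR. Its coreceptor Il1rap had a CDS peak at 12 in muscle, where the annotation also holds the noncoding gene Gm20319, and the decoy receptor Il1r2 had none. Il17ra, the receptor chain for IL-17, had 9 sites in a CDS peak of 1799 bp on chromosome 6 from 120481176 to 120482974, and a fold enrichment of 297. Its C2C12 peaks, 2 in coding exons, covered 1072 bp. Il4ra, which binds IL-4, had a 3′UTR peak of 419 bp with no GGAC site, between 125579026 and 125579444 of chromosome 7, at 7.87. In C2C12, Il4ra had a coding exon peak of 374 bp and a 3′UTR peak of 260 bp. Csf3r, the receptor for G-CSF that marks neutrophils and their precursors, had a CDS peak of 657 bp on chromosome 4 from 126043426 to 126044082 at 76.2, the highest value among the member peaks with no GGAC site. Csf2rb, the beta chain shared by the receptors for GM-CSF, IL-3 and IL-5, had 1 peak of 151 bp at 1.79. It has a close copy, Csf2rb2, and how the authors' counting treats reads from both is not given in the sources used here. Csf1r and Il10ra had no peak in either table.

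The chemokine receptors with a muscle peak were Cxcr2, the neutrophil receptor (24.6), Ccr2 (16.5) and Cx3cr1, found on monocytes and macrophages (4.48). Ccr2 had more muscle peaks than any other member, 3 in all, with weaker ones at 2.18 in the 5′UTR and 1.49 in the 3′UTR. Cxcr4, the receptor for Cxcl12, had 1 coding exon peak of 561 bp in C2C12 and none in the muscle table, and Ccr1 was in neither.

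Behind the receptors, Jak2 was the only kinase in the muscle table and Jak1 the only one in the C2C12 list, and neither Jak3 nor Tyk2 had a peak. The Jak2 peak covers 1318 bp of the 3′UTR in 2 blocks, between 29310974 and 29312990 of chromosome 19, and had a fold enrichment of 32.5 with 3 GGAC sites. That of Jak1 covers 214 bp of the 3′UTR.

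Stat2, a STAT of type I interferon signalling, was the STAT with the highest value. Its main peak, classed as 3′UTR, covers 988 bp in 2 blocks on chromosome 10 from 128290827 to 128292011 and had 2 sites and a fold enrichment of 161. A further 3′UTR peak from 128292430 to 128292669 stood at 1.99, and C2C12 had 1 coding exon peak of 258 bp. Stat6, the STAT of IL-4 signalling, had a 3′UTR peak of 719 bp, between 127659700 and 127660418 of chromosome 10, with 6 sites and a fold enrichment of 34.2, and a 5′UTR peak without a site from 127642986 to 127643166 at 6.43. Stat5b had the lowest value among the members, 1.59, from 150 bp in 3 blocks of the CDS on chromosome 11 between 100783186 and 100784260. Its neighbour Stat5a, a near-identical copy, had no peak, and the counting of reads from both is not given in the sources used here. Stat3, the main STAT of gp130 signalling, had no peak in either table.

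Socs3, the inhibitor induced by gp130 signalling, had 1 muscle peak of 1937 bp in 2 blocks, the longest of all members, on chromosome 11 from 117966556 to 117969048. It is classed as CDS and holds 12 GGAC sites, the most of any member peak, with a fold enrichment of 109. In C2C12 a 3′UTR peak of 790 bp was listed for it. Socs5 had 2 coding exon peaks in C2C12 covering 1026 bp and none in the muscle table, and Socs1 and Cish had none in either.

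The authors' p of a peak against the input was listed as 0 for 11 of the 30 muscle peaks (36.7%) and for 17.2% of all muscle peaks. The 11 were the highest ones of Cxcl12, Lifr, Il1r1, Il17ra, Stat2, Socs3, Il6st, Ifngr1, Ifngr2, Ifnar1 and Ccr2. It was 1e-253 for Jak2, 1e-158 for Csf3r, 1e-140 for Osmr and 2e-86 for the higher peak of Stat6. For Tnf it was 1.3e-60, for Cxcl10 1.6e-55, for Il4ra 2.3e-08 and for Stat5b 1.4e-08. Each is 1 value over the muscle libraries and says nothing of the spread between animals. The highest p among the members was that of Csf2rb, 3.4e-05. Member peaks were longer than all muscle peaks, with a median of 553 bp against 360 bp. The part of length in the share listed as 0 was not tested.

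Most member peaks lay in the 3′UTR or in coding sequence, as did most peaks of each table. In muscle, 14 of 30 peaks (46.7%) were in the 3′UTR, 9 (30%) in the CDS and 2 in the 5′UTR, against 48.0%, 31.9% and 5.14% of all peaks. In C2C12, 13 of 24 (54.2%) lay in coding exons (52.6% of all peaks) and 9 (37.5%) lay in the 3′UTR (25.9% of all peaks). The other 2 were in introns, and none was in the 5′UTR, where 6.29% of all C2C12 peaks lie. The midpoint of 18 of the 30 muscle peaks (60.0%) lay 90% or more of the way along the span of the gene, as did 52.0% of the 5216 muscle peaks with a matched RefSeq gene. Of the members in the muscle table, 6 of 23 (26.1%) had more than 1 peak, as did 25% of all genes. In each of these 6 genes the highest peak stood well above the next. It was 5.32 times the next in Stat6, 7.57 times in Ccr2, 12 times in Il6st, 60.8 times in Cxcl12, 80.9 times in Stat2 and 112 times in Lifr. The median of this ratio was 36.4 over these 6 genes and 3.02 over the 996 genes with more than 1 peak.

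Of the 30 member peaks, 23 held a GGAC site, a share of 76.7%, against 70.6% of all peaks. The Wilson 95% interval runs from 59.1 to 88.2, for counting error only, and treats peaks of the same gene as independent. The 30 peaks come from 23 genes, and their median length was 553 bp, against 360 bp for all peaks. Of the 24 member peaks in a single block, 54.2% held a site in the 200 bp around their centre, against 52.3% of all such peaks. The density was 4.39 sites per 1000 bp in the member peaks and 4.63 in all peaks. Of the 20 member peaks with a fold enrichment of 10 or more, 19 held a site, with Csf3r as the exception, while 4 of the 10 weaker ones did. Over all peaks these shares were 83.4% and 53.9%. The stronger member peaks were also longer, with a median of 792.5 bp against 196 bp, and the part of length in this difference was not tested. The sequence of the sites was not printed, since no genome sequence was used here.

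For the 12 genes in both tables, peak places were compared by distance from the start of the gene, because only 9.30% of the C2C12 peaks lie inside the GRCm38 span of their gene, so their positions appear to be on another build, which was not identified. In 6 genes (Il6st, Ifngr1, Ifngr2, Il17ra, Stat2 and Socs3) the midpoint of a C2C12 peak fell within the distances that a muscle peak spans. Il17ra is an example, with C2C12 midpoints at 18468 and 19128 bp and a muscle peak from 17995 to 19793 bp. For Il6st the midpoints were at 40412 and 41265 bp and the muscle peak ran from 39807 to 41727 bp. Over all 1614 genes in both tables, the same held for 51.9%. For the other 6 genes the distances did not meet. The distances lay furthest apart for Lifr, at 50733 bp in C2C12 and from 100025 bp in muscle. That C2C12 peak is classed as 3′UTR, although the RefSeq span of Lifr is 106880 bp, and the reason was not tested. The distances were nearer each other for Cxcl12 (5068 and from 7741 bp) and Il1r1 (88347 and from 89986 bp). This was also so for Ifnar1 (20036 and from 21509 bp), Il4ra (25294 and from 26755 bp) and Osmr (58803 and from 60072 bp). Since the C2C12 distances are counted from a start site chosen by the authors and the muscle distances from the RefSeq start, a different place and a different start cannot be told apart there.

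The rest of the pathway was looked at through 133 further genes. Of these, 17 (12.8%) were in the muscle table and 17 (12.8%) in the C2C12 list, both below the share of all protein-coding genes. Inhibitors and phosphatases had the highest shares of any group with over 10 genes, 4 of 13 in muscle and 7 of 13 in C2C12. Of the 31 further cytokines outside the IL-1 family, none was in the muscle table and only Clcf1 in the C2C12 list. Of 11 further genes of the IL-1 family, which holds ligands and receptors, Il33, an alarmin cytokine, was in the muscle table, at a fold enrichment of 20.4, and none was in the C2C12 list. Of the 23 further chemokines, Ccl25 and Cxcl16 were in the muscle table and none in the C2C12 list, and Clcf1, Il33, Ccl25 and Cxcl16 are named after their values were seen. Of the 33 further cytokine receptors, 6 (18.2%) were in each table, and of the 18 further chemokine receptors 3 (16.7%) were in the muscle table and 2 (11.1%) in the C2C12 list. The high shares among the 22 receptors described above were thus not found in these further receptors, whose muscle shares were near the 16.9% of all protein-coding genes. Genes found in both tables include Ghr, Tnfrsf1a, Ptpn1 and Ptpn11. In muscle their fold enrichments were 6.60 for Ghr, the growth hormone receptor, and 90.7 for Tnfrsf1a, the main receptor of TNF. The phosphatase genes Ptpn1 and Ptpn11 stood at 114 and 28.6. Tnf and its receptor gene Tnfrsf1a were thus both listed in muscle.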

How the data were processed

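m6A MeRIP-Seq of 4 muscle libraries and 3 C2C12 libraries was analysed from 1 peak table per experiment. The submitters' processing notes name TopHat, MACS2 and mm10, and the settings are not given in the sources used here. For each muscle peak the authors deposited a p-value, not used for any test here, and the enrichment of IP over input as a fold value (ratio). The authors' differential columns (log2 fold change, p and FDR) were not used, except to check that all 5412 peaks lie at or below an FDR of 0.05 within rounding. Depth is unknown, as no counts were used here.

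Gene names were looked up in RefSeq (GRCm38), where older symbols counted if they name a single gene, and C2C12 genes by transcript first. For muscle, 95.6% of matched peaks lie inside the gene, and for C2C12 9.30%, although mm10 (GRCm38) is the build named, so only muscle positions are given. Each gene was represented by its highest peak. Some genes of the lists are not reported here. No test was made: members are not replicates, and members, lists and naming rule (every member with a peak, full values for the 10 highest, for JAK, STAT and SOCS genes and for genes in both tables) were chosen with earlier results of these data known. Python 3.11.15, pandas 2.3.3, numpy 2.4.6, scipy 1.17.1 and matplotlib 3.10.9 were used. The coverage of the Wilson interval was checked on simulated data, and the symbol lookup on made-up symbols.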

Additional observations from a re-analysis of the deposited data

How the results depend on the processing

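Of 16 alternatives, 12 left the result about as reported, meaning within 1.5 times for counts, medians, densities and background shares, and within the 95% Wilson interval for the GGAC share. The 23 members with a muscle peak became 18 when peaks under the median fold enrichment were left out (10.1% of all protein-coding genes), 21 at a fold enrichment of at least 2, without Stat5b and Csf2rb, and 20 with 5′UTR, CDS and 3′UTR peaks only. The 18 members in C2C12 became 17 without intron peaks and 14 with peaks of at least the median length, and the 12 in both became 11 without C2C12 intron peaks and also 11 without muscle peaks under the median fold enrichment. Of these filtered counts, only the 18 in muscle has the share of all protein-coding genes beside it. The other shares were not worked out. Older symbols changed no count. The GGAC share of 76.7% became 54.2% in the 200 bp around the centre of peaks in a single block (52.3% of all such peaks), which changes both the window and the peaks counted, and 94.7% without peaks under the median fold enrichment (85.8% of all such peaks). With all annotated genes in place of protein-coding ones, the share of genes listed was 7.61% in muscle and 7.93% in C2C12, since genes of other kinds were added. DRACH in place of GGAC was not run, as no genome sequence was used here. No paired analysis was possible because the tables hold no values per library.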

Other observations

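Some of the further pathway genes stood higher in muscle than most of the 23 members, and those named here were chosen after their values were seen. Over all 17 further genes in the muscle table, the median fold enrichment was 23.1 and the lowest 2.17. The median of the 23 members was 35.5. Il21r, the receptor for the lymphocyte cytokine IL-21, had a CDS peak of 1348 bp that holds 8 GGAC sites, at a fold enrichment of 1240, rank 10 of the 5412 peaks and above Cxcl12. Socs4, a relative of Socs5, had a CDS peak at 309, and Il7r, the IL-7 receptor chain of lymphocytes, a CDS peak of 2033 bp at 121. Ccrl2, an atypical chemokine receptor, had a CDS peak at 80.4. None of these 4 genes is in the C2C12 list. The T cell markers Cd3e, Cd4 and Cd8a had no listed peak, and the cell types behind the peaks of Il21r and Il7r were not tested.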
